A study of Mus musculus with 12 samples.

Results

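Cells carrying Endoglin on their surface were compared with cells lacking it, in mouse embryos of the CD-1 strain at embryonic day 7.5, with the surface receptor Flk1 taken into account. About 300 embryos from 25 litters were pooled, stained with antibodies against both proteins and sorted by flow cytometry into 4 fractions of 3000 cells, each sorted in triplicate. The Endoglin positive arrays are the 3 arrays of Eng+Flk1+ cells and the 3 of Eng+Flk1- cells, and the Endoglin negative arrays are the 3 of Eng-Flk1+ cells and the 3 of Eng-Flk1- cells. All 12 arrays of the series therefore enter the comparison, 6 in each arm, chosen by the sort gates and not by any measured transcript. No embryo was mutant or treated. The replicates are repeat sorts of 1 pool, so the p-values measure only the spread between these sorted samples, which may be technical. In such sorted bulk samples, fewer cells of a type and less RNA per cell cannot be told apart.

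Endoglin is a transmembrane co-receptor that binds ligands of the TGF-beta and BMP family together with signalling receptors such as Acvrl1 and Bmpr2, and it is best known from endothelial cells. Flk1, encoded by Kdr, is a receptor of vascular endothelial growth factor and marks mesoderm from which blood and endothelial cells arise. At this stage the conceptus also holds epiblast, embryonic mesoderm, visceral endoderm around the embryo and the extraembryonic ectoderm that feeds the placenta, and cells of any of these could fall into a gate that is defined by only 1 or 2 surface proteins.

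Levels are given as the log2 signal of a gene relative to the 75th percentile of its own array, so that 0 lies at the upper quartile and each unit is a doubling. A difference is always Endoglin positive minus Endoglin negative, and the pair of strata are the Flk1 positive one (Eng+Flk1+ minus Eng-Flk1+) and the Flk1 negative one (Eng+Flk1- minus Eng-Flk1-). Of 27745 gene names on the array, 22844 were well above background on every array of at least 1 fraction and were tested. The Eng-Flk1- arrays stood apart. Between 66.5% and 76.3% of their probes were well above background, against 80.2% to 83.3% on the other 9 arrays, and the median standard deviation of a gene among them was 1.01, against 0.565 to 0.668 in the other fractions. The arrays lay on 3 slides, each scanned separately. Slide 1 held only Endoglin negative arrays, slide 3 only Endoglin positive ones, and slide 2 held Eng+Flk1+ replicates 1 and 2 beside Eng-Flk1+ replicates 2 and 3. Slide and Endoglin status therefore cannot be told apart within the Flk1 negative stratum.

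Each value rests on a 60-base probe. The probes of the 5 genes that passed the test are shown first because the result turns on these short stretches, and for Prkcq the other probes are added because they gave another answer. Coordinates are those of the scanner files, on mouse build mm8, and the position within exons was not looked up. The probe of Cer1 lies at chr4:82353058-82353117 on the minus strand, that of Cd24a at chr10:43272315-43272374 on the plus strand and that of Hlx at chr1:186431539-186431598 on the minus strand. The probe of the cDNA clone AK036185, whose product the array annotation calls unclassifiable, lies at chr2:180638624-180638683 on the plus strand. The Prkcq probes all lie on the plus strand, at chr2:11218252-11218311 (probe 1), chr2:11218655-11218714 (probe 2) and chr2:11180568-11180627 (probe 3).
Cer1: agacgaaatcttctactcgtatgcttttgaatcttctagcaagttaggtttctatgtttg
Cd24a: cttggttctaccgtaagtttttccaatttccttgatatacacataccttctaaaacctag
Hlx: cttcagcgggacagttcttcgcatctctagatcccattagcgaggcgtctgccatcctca
AK036185: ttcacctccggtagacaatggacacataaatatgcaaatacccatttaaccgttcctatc
Prkcq probe 1: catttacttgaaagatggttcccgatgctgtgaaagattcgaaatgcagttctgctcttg
Prkcq probe 2: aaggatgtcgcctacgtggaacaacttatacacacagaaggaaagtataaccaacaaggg
Prkcq probe 3: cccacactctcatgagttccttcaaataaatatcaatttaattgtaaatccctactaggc

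The transcripts of both sorted proteins were examined first. Eng stood at 2.76, 1.04 and 2.49 in the Eng+Flk1+ arrays and at 0.75, 0.84 and -0.16 in the Eng+Flk1- arrays, against 0.21, -0.36 and 1.62 in the Eng-Flk1+ arrays and 0.13, -1.47 and -0.13 in the Eng-Flk1- arrays. The Endoglin positive and negative arrays overlapped in both strata. The mean difference was 1.29 on the log2 scale, with 1.61 in the Flk1 positive stratum and 0.97 in the Flk1 negative one. An exact two-sided permutation of Endoglin status within the strata (400 splits, smallest possible p 0.005) gave p = 0.03, and p = 0.06 after adjustment over both sorting markers. In limma's fit over all genes the adjusted p of Eng was 0.541, so the transcript of the sorted protein did not pass the test used for the rest.

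Kdr followed the other gate. Its level was 1.53, 1.85 and 1.53 in Eng+Flk1+ and -3.27, -6.80 and -6.07 in Eng+Flk1- cells, against 0.90, 0.47 and 1.96 in Eng-Flk1+ and -4.41, -7.28 and -6.91 in Eng-Flk1- cells. Every Flk1 positive array lay above every Flk1 negative one, and Endoglin status made a difference of 0.67 (exact permutation p = 0.375). A second Kdr probe gave -0.17. The first was well above background on 2 of 3 Eng+Flk1- and 1 of 3 Eng-Flk1- arrays.

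Of the 22844 genes tested, 5 (0.0219%) passed an adjusted p of 0.05 in limma with Flk1 status as a covariate. Hlx, Prkcq and AK036185 rose, and Cer1 and Cd24a fell. All 5 had the same direction in both strata and no overlap of the 3 against 3 arrays in either one, and none of them passed the test of a difference between the strata. The additive fit counts a difference between strata as residual spread. It therefore favours genes with like shifts, and this agreement is no separate result. Tested by stratum (limma, 4 fractions as groups), all 5 were called in the Flk1 negative one. In the Flk1 positive stratum only AK036185 of the 5 was called (adjusted p 0.012). There the adjusted p was 0.128 for Cer1, Hlx and Cd24a and 0.134 for Prkcq. At an unadjusted p under 0.05, 1088 genes (4.76%) were higher and 633 (2.77%) lower in Endoglin positive cells. In the same fit 147 genes (0.643%) were called for Flk1 status.

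Cer1, which encodes a secreted inhibitor of Nodal and BMP signalling made by anterior endoderm, was not well above background in any Endoglin positive array and was above it in all 6 Endoglin negative ones. Its level was -8.24, -7.47 and -8.40 in Eng+Flk1+ and -7.40, -6.37 and -8.42 in Eng+Flk1- cells, against -2.16, -1.18 and -0.06 in Eng-Flk1+ and -0.74, 1.52 and 4.55 in Eng-Flk1- cells. No Endoglin positive array came near an Endoglin negative one. Because the dim arm gives only a limit, Cer1 was on average over both strata at least 87.5-fold lower in Endoglin positive cells. The lowest signal well above background on each array was taken as the limit. Cer1 was at least 33-fold lower in the Flk1 positive and at least 231.9-fold lower in the Flk1 negative stratum. In limma's fit its adjusted p was 0.00842, and since that fit uses signals below background in 1 arm, its difference is no measure of size. With normexp background correction, run with an offset of 50 added to every signal, Cer1 was not called (limma adjusted p 0.199).

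Cd24a encodes a small glycosylated surface protein anchored by a lipid. It stood at 1.81, 1.37 and 1.74 in Eng+Flk1+ and 1.87, 1.19 and 2.43 in Eng+Flk1- cells, against 4.29, 4.08 and 4.22 in Eng-Flk1+ and 4.07, 4.09 and 5.0 in Eng-Flk1- cells. The arms were clearly separate, and the difference was almost the same size in both strata, -2.55 in the Flk1 positive and -2.56 in the Flk1 negative one. Together it was -2.56 ± 0.31 (SE, limma adjusted p 0.0182). A further entry, Gm6212 (EG621324 on the array), is described in the files as similar to the CD24 precursor. It was singled out after its values were seen. It differed by -2.40 ± 0.35 with limma's adjusted p 0.0678, and whether its probe also reads Cd24a transcripts was not tested.

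Hlx, written Hlx1 on the array, encodes a homeobox transcription factor. Its level was 0.90, 1.26 and 0.94 in Eng+Flk1+ and -0.71, -1.68 and -0.52 in Eng+Flk1- cells, against -1.63, -2.36 and -0.99 in Eng-Flk1+ and -3.93, -3.63 and -3.86 in Eng-Flk1- cells. Each stratum was separate by Endoglin status, but across strata the arms overlapped, since 1 Eng+Flk1- array (-1.68) lay below 2 Eng-Flk1+ arrays. The difference was 2.69 in the Flk1 positive and 2.84 in the Flk1 negative stratum, and 2.76 ± 0.33 over both (SE, limma adjusted p 0.0182).

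Prkcq encodes protein kinase C theta, known for signalling in T cells. With probe 1 it stood at -1.59, 0.07 and 0.66 in Eng+Flk1+ and -0.76, -1.15 and -1.05 in Eng+Flk1- cells, against -3.79, -3.69 and -3.84 in Eng-Flk1+ and -4.89, -3.21 and -3.58 in Eng-Flk1- cells. All 6 Endoglin positive arrays lay above all 6 negative ones. The difference was 3.20 ± 0.43 (SE, limma adjusted p 0.0437). Probe 2, well above background on all 12 arrays, differed by -0.05, and probe 3, above background on 2 arrays, by 0.59. When the probes of each gene were averaged instead, Prkcq differed by 1.24 and was not called (limma adjusted p 0.551), so the rise holds for 1 probe of the gene.

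The clone AK036185 gave the lowest p. It stood at -1.70, -2.92 and -2.18 in Eng+Flk1+ and -1.91, -0.82 and -1.92 in Eng+Flk1- cells, against -7.57, -7.27 and -7.14 in Eng-Flk1+ and -4.61, -5.33 and -5.28 in Eng-Flk1- cells. It was well above background on 6 of 6 Endoglin positive and 2 of 6 Endoglin negative arrays. None of the Eng-Flk1+ arrays was well above background, so in the Flk1 positive stratum only a limit can be given, and the clone was at least 15.6-fold higher in Eng+Flk1+ cells. In the Flk1 negative stratum, where 2 of 3 Eng-Flk1- arrays measured it, the difference was 3.52. Over both strata the fitted difference was 4.29 ± 0.40 (SE, limma adjusted p 0.00509), which rests in part on signals below background, and with normexp background correction it was 1.35 and not called (adjusted p 0.163).

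**Figure D1:**
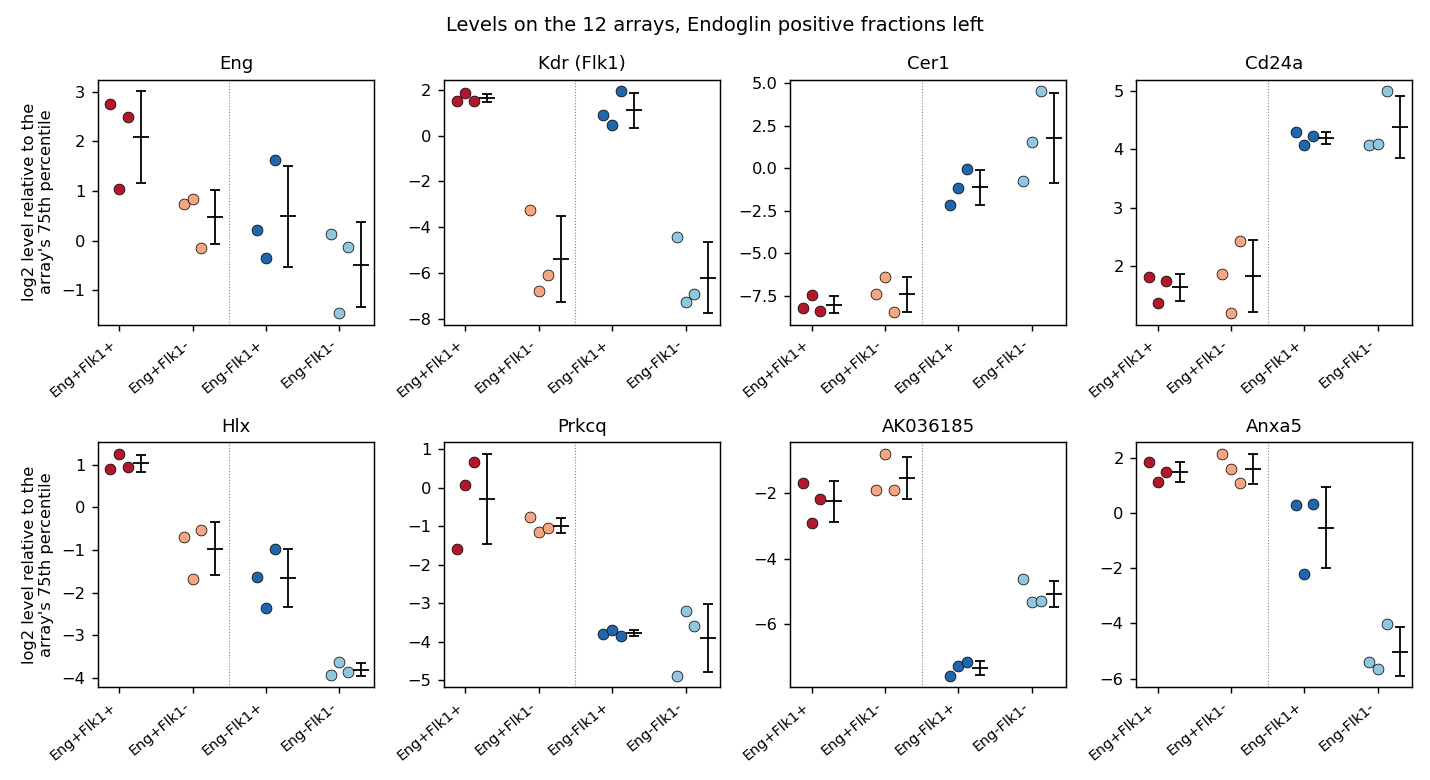
Log2 level relative to each array's 75th percentile (y axis) of Eng, Kdr, Cer1, Cd24a, Hlx, Prkcq, AK036185 and Anxa5 in the 4 fractions (x axis); points are arrays and bars the mean ± SD of 3. Cer1 and Cd24a lie lower and Prkcq and AK036185 higher in every Endoglin positive array than in every Endoglin negative one, while Kdr follows Flk1 status and Eng overlaps.

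Within slide 2, the only slide with both arms, 2 Eng+Flk1+ and 2 Eng-Flk1+ arrays differed by -7.23 for Cer1, -2.56 for Cd24a, 2.75 for Hlx, 3.01 for Prkcq and 4.90 for AK036185. None of the 5 overlapped there, but this follows from their separation in the whole Flk1 positive stratum and adds nothing to it. Here and in the values that follow, the differences of Cer1 and AK036185 are fitted on signals below background in 1 arm. With slide as a fixed term these within-slide differences are the whole estimate, and no gene was called (limma, 690 genes at an unadjusted p under 0.05), the lowest adjusted p among the 5 being 0.236 for AK036185. Without the 3 Eng-Flk1- arrays 13 genes were called, Cer1 (-6.90) and AK036185 (5.06) among them, each with limma's adjusted p 0.0165. Cd24a, Hlx and Prkcq kept differences of -2.55, 2.69 and 3.49 there but were no longer called.

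Other settings ended calls too. Normexp added an offset of 50 to every signal, where the median processed signal of an array was 27.6 to 142. Such an offset shrinks the log2 differences of dim signals, and its part in the lost calls was not tested. With normexp background correction Cer1 differed by -3.69 (limma adjusted p 0.199), AK036185 by 1.35 (adjusted p 0.163), Hlx by 1.94 (adjusted p 0.0685) and Prkcq by 1.88 (adjusted p 0.142), and only Cd24a of the 5 remained called, at -2.49 (adjusted p 0.0127). In the authors' deposited table, fitted the same way, Cer1 and AK036185 remained called, while Cd24a differed by -2.83 (adjusted p 0.0616), Hlx by 2.49 (adjusted p 0.0721) and Prkcq by 2.92 (adjusted p 0.118). Leaving out any 1 array kept the calls of Cer1 and AK036185. Cd24a was called only without an Eng-Flk1- array or without Eng+Flk1- replicate 3, and in the other 8 fits its adjusted p rose to at most 0.0882 with differences of -2.69 to -2.41 over all 12 fits. Hlx lost its call without Eng-Flk1+ replicate 1, without any Eng+Flk1+ array and without Eng+Flk1- replicates 1 or 3 (adjusted p at most 0.0876, differences 2.62 to 2.92 over all 12 fits). Prkcq was called only without Eng-Flk1- replicate 2 or Eng+Flk1+ replicate 1 (adjusted p at most 0.196 otherwise, differences 2.96 to 3.46).

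Over all genes the strata did not run in parallel. The differences in them ran together in sign for 10321 genes (45.2%). Over the 22844 genes, each stratum measured on its own 6 arrays, Pearson's r was -0.093 and Spearman's rank correlation -0.085. Genes are not independent replicates, and these values describe the arrays only. In the Flk1 positive stratum 6 genes (0.0263%) were called, against 336 (1.47%) in the Flk1 negative one, of which 285 were higher and 51 lower in Eng+Flk1- cells. That second count rests on the Eng-Flk1- arrays, which are the dimmest of the set and share no slide with Eng+Flk1- cells. The median size of a difference was 0.487 in the Flk1 positive and 0.729 in the Flk1 negative stratum.

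Counting arrays without a model, 3144 genes (13.8%) had no overlap of 3 against 3 arrays in the Flk1 positive stratum and 4345 (19%) in the Flk1 negative one. Of these, 141 genes (0.617%) were higher in both and 136 (0.595%) lower in both, while 306 (1.34%) were separate in opposite directions. The 277 genes of the same direction are to be read against these 306. With normexp background correction the counts were 234 in the same and 517 in opposite directions, with quantile normalization 265 and 506, and with scaling to the array median, as in the authors' deposited table, 288 and 653. Over all 12 arrays, with no overlap of 6 against 6, 45 genes (0.197%) were higher and 58 (0.254%) lower in Endoglin positive cells, and every one of these 103 is among the 277. The genes higher in both strata had a median difference of 1.79 and 87 of the 141 were well above background on all 12 arrays. Those lower in both had a median of -1.14, and 123 of the 136 were above background throughout.

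**Figure D2:**
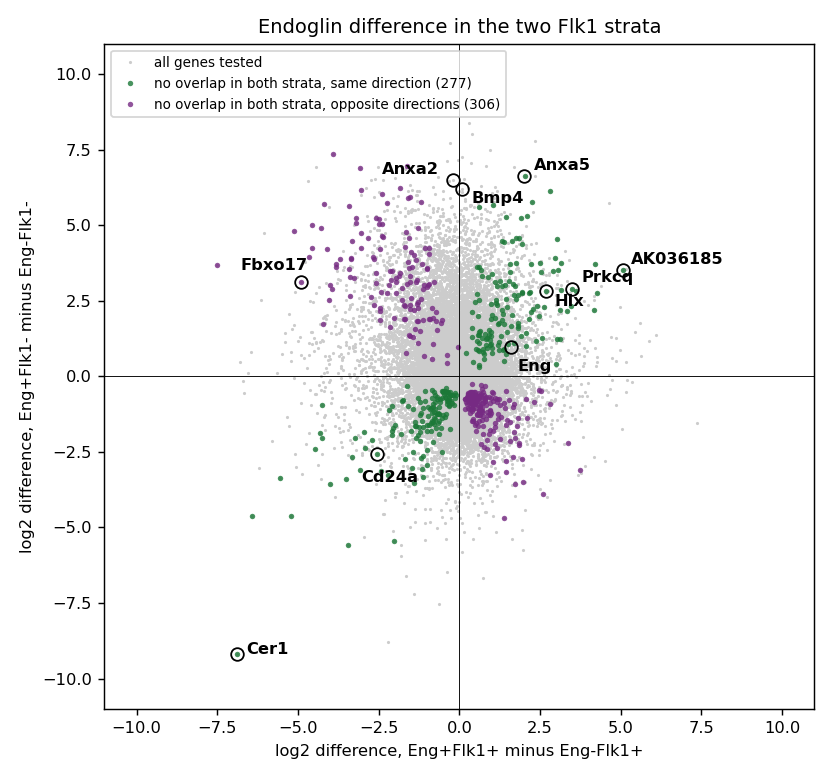
Difference in the Flk1 positive stratum (x axis, Eng+Flk1+ minus Eng-Flk1+, log2) against the difference in the Flk1 negative stratum (y axis, Eng+Flk1- minus Eng-Flk1-, log2), 1 point a gene for 22844 genes. The 277 genes separate in the same direction (green) and the 306 separate in opposite directions (purple) fill all 4 quadrants, and the cloud has no upward slope (r = -0.093).

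A fit with the 4 fractions as separate groups lets the strata differ. For the mean of both strata it called 66 genes (0.289%), 50 higher and 16 lower, and 54 of them had the same sign in both. All 5 genes above were among them, with adjusted p-values between 0.00227 for AK036185 and 0.02 for Prkcq. The test of the difference between strata called 63 genes (0.276%), 3 with a higher and 60 with a lower value in the Flk1 positive stratum.

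Beyond the called genes, 12 higher and 12 lower genes were named among those with 1 direction, separate in both strata and above background on all 12 arrays, taking the called ones first and then those with the lowest p. Only Prkcq, Hlx and Cd24a of these 24 passed the test. The other 10 higher genes had limma adjusted p-values of 0.223 to 0.247, and the other 11 lower genes 0.0919 to 0.275. Their differences are values without a call, and 5 of the 12 higher and 8 of the 12 lower genes showed no overlap of 6 against 6 arrays. With the 4 fractions as groups 4 of the 12 higher and 5 of the 12 lower genes were called.

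Nos3, the endothelial nitric oxide synthase, stood at 3.02, 3.20 and 2.94 in Eng+Flk1+ and 1.46, 0.43 and 1.51 in Eng+Flk1- cells, against 1.51, 0.23 and 0.98 in Eng-Flk1+ and -1.98, 0.01 and -2.89 in Eng-Flk1- cells, a difference of 2.45 ± 0.48 (SE). It was highest where both proteins were sorted for and lowest where neither was. Laptm5, a lysosomal membrane protein of blood cells, differed by 3.78 ± 0.73, and its second probe by 4.40. S1pr1, written Edg1 in the files and singled out after its values were seen, is a sphingosine 1-phosphate receptor of endothelium. It differed by 4.49 ± 0.81 (limma adjusted p 0.223), with 2.33 in the Flk1 positive stratum, where its arrays overlapped. In the Flk1 negative one no Eng-Flk1- array was well above background, and it was at least 30.5-fold higher in Eng+Flk1- cells.

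Anxa5, an annexin that binds phosphatidylserine in the presence of calcium, had the largest difference of the 12 higher genes. It stood at 1.85, 1.12 and 1.49 in Eng+Flk1+ and 2.16, 1.61 and 1.08 in Eng+Flk1- cells, against 0.31, -2.21 and 0.31 in Eng-Flk1+ and -5.39, -5.66 and -4.01 in Eng-Flk1- cells. The Endoglin positive arrays all lay above the negative ones, with Eng-Flk1- cells far below the rest. The difference was 4.32 ± 0.84 (SE, limma adjusted p 0.223). It was 2.02 in the Flk1 positive stratum (limma adjusted p 0.841) and 6.63 in the Flk1 negative one (adjusted p 0.00258). The difference between strata did not pass the test (adjusted p 0.116), and as the mean of strata with 4 fractions Anxa5 was called (adjusted p 0.00914).

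The other higher genes were of mixed function. The zinc finger factor Tshz1 differed by 3.13 ± 0.58 at the named probe and by 0.42 at its other one, also above background on all 12 arrays. The sialyltransferase St3gal4 differed by 2.35 ± 0.47, and by -0.27 at its other probe. The matrix proteoglycan Prelp differed by 2.25 ± 0.46, with 0.91 at a second probe that was above background on 4 arrays, and the lipid kinase Pik3c2b by 2.02 ± 0.42. Gramd3 (2.75 ± 0.53) and the dynein heavy chain gene Dnahc7c (2.17 ± 0.44) rest on 1 probe each as well, since the other probes of Gramd3 differed by -0.09 and -0.06, and those of Dnahc7c by 0.25, 0.56 and -1.57. Wdr45, an autophagy gene, and Lrrc72 were above background on all 6 Endoglin positive arrays and on no Endoglin negative one. On average over both strata they were at least 3.07-fold and at least 2.17-fold higher, with limma adjusted p-values of 0.223 and 0.393. The bounds were 5.86-fold and 2.79-fold in the Flk1 positive stratum, and 1.61-fold and 1.68-fold in the Flk1 negative one.

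Among the lower genes, Gja1, the gap junction protein connexin 43, stood at -0.35, 0.51 and 0.53 in Eng+Flk1+ and -0.09, -0.42 and 0.18 in Eng+Flk1- cells, against 1.88, 2.33 and 1.55 in Eng-Flk1+ and 2.10, 2.01 and 3.72 in Eng-Flk1- cells. The arms did not overlap, and the difference was -2.21 ± 0.40 (SE). Emb, which encodes embigin, an adhesion protein that carries lactate transporters to the membrane, stood at 2.39, 2.19 and 2.75 in Eng+Flk1+ and 2.39, 2.81 and 3.22 in Eng+Flk1- cells, against 3.74, 3.16 and 3.88 in Eng-Flk1+ and 5.65, 5.65 and 6.27 in Eng-Flk1- cells. Its difference was -2.10 ± 0.40, with -2.80 at the second probe and -0.07 at a probe above background on 2 arrays, and the arms overlapped by 1 Eng+Flk1- and 1 Eng-Flk1+ array.

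A clone probe, D930050A07Rik, now assigned to the Wnt receptor gene Fzd3, differed by -4.92 ± 0.76 (limma adjusted p 0.0919). The probes that carry the name Fzd3 itself differed by -0.71 and -1.0. Frzb, a secreted Wnt inhibitor, was singled out after its values were seen. It stood at -6.15, -5.0 and -3.93 in Eng+Flk1+ and -4.21, -6.26 and -2.45 in Eng+Flk1- cells, against 2.00, 0.89 and 1.31 in Eng-Flk1+ and 0.15, -1.35 and 2.17 in Eng-Flk1- cells. The arms were apart, the difference was -5.53 ± 0.77 (SE), and limma's adjusted p was 0.0524, just past the threshold. Frzb was well above background on 4 of 6 Endoglin positive arrays, so the size of its difference rests in part on signals below background.

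The remaining lower genes included secreted and matrix proteins. Ptn, a heparin-binding growth factor, differed by -3.00 ± 0.59, and the matrix protein Fbln1 by -2.46 ± 0.50, with -1.74 at its other probe. The transcription factor Dach1 differed by -2.79 ± 0.58 (-1.89 at a second probe, above background on 3 arrays), the glycosidase Myorg by -3.46 ± 0.67, the spindle protein Haus7 by -2.40 ± 0.51. Rragd, a small GTPase of amino acid sensing, differed by -2.74 ± 0.61 at the named probe and by 0.09 at its other one. Rnf114, a ubiquitin ligase, differed by -2.63 ± 0.50 at 1 probe and by -0.12 at the other. Ptbp2, a splicing regulator, differed by -1.50 ± 0.33 at the named probe and by 0.24 and 0.23 at its others.

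**Figure D3:**
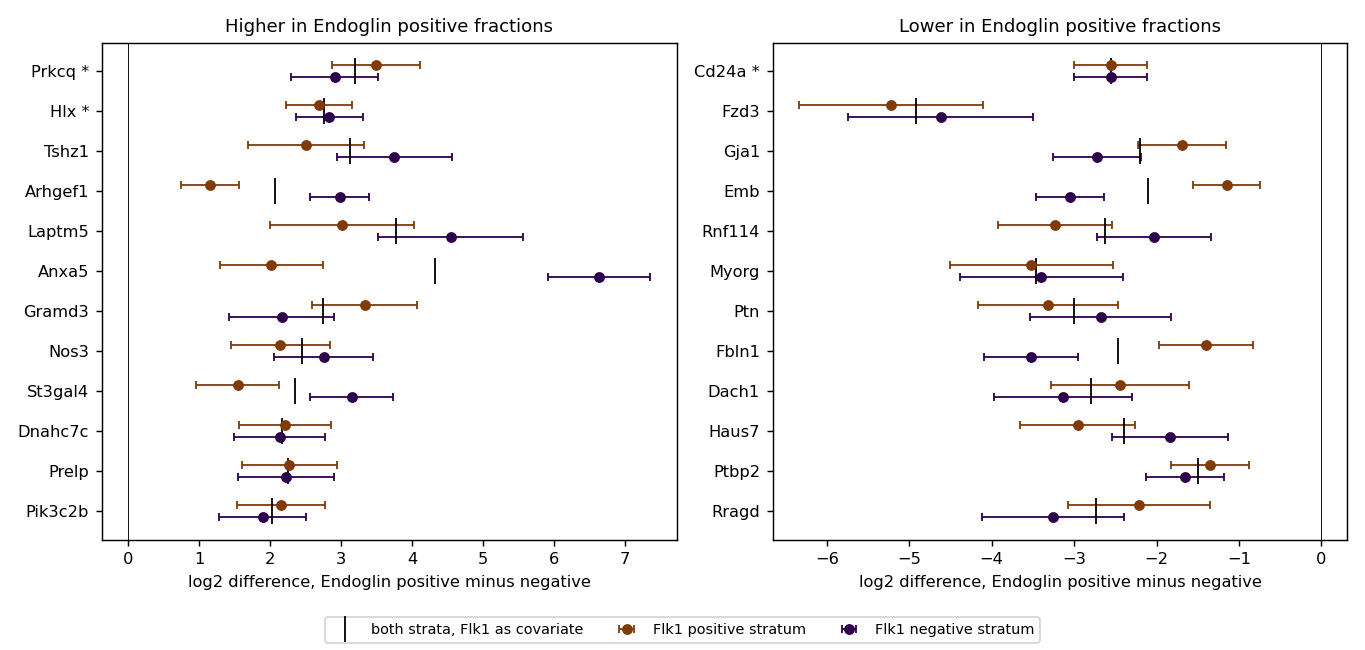
Log2 difference ± SE (x axis) in the Flk1 positive and the Flk1 negative stratum for the 12 higher and the 12 lower genes named (y axis). All 24 lie on 1 side of 0 in both strata, as their choice requires, and only the asterisked Prkcq, Hlx and Cd24a passed the test.

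Gene lists of cell types and processes were then set beside all genes tested, of which 51.1% had a positive difference, with a median of 0.017. Of all 29 lists, Cer1 and Cd24a were the only members called in the additive fit. Endothelial genes leaned upward. Of 22 measured, 18 were positive, the median was 1.02, and none was called. The lean was unequal, with a median of 1.75 in the Flk1 positive and 0.12 in the Flk1 negative stratum. Tie1, an endothelial receptor kinase, differed by 4.74 in the Flk1 positive and 0.61 in the Flk1 negative stratum. Its level was 2.97, 2.45 and 3.64 in Eng+Flk1+ and -5.07, -4.38 and -5.76 in Eng+Flk1- cells, against -0.59, -3.19 and -1.37 in Eng-Flk1+ and -2.92, -7.03 and -7.11 in Eng-Flk1- cells. Only the Flk1 positive stratum was separate. In the Flk1 negative one Tie1 was well above background on 3 of 3 Eng+Flk1- and 1 of 3 Eng-Flk1- arrays. Over both strata Tie1 differed by 2.68 ± 0.95 (limma adjusted p 0.509), the junction cadherin Cdh5 by 2.57 ± 0.93 (adjusted p 0.525) and the surface sialomucin Cd34 by 2.17 ± 0.71 (adjusted p 0.456).

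Genes that regulate early blood formation were positive for 16 of 18 members, with a median of 0.57 and no call. The factor Lyl1 differed by 1.91 ± 0.67 (limma adjusted p 0.507) and Itga2b, the integrin CD41 of early blood cells, by 0.98 ± 0.40 (adjusted p 0.6). In both strata 7 of the 18 (38.9%) were positive, where 24.1% of all genes were positive in both. No member was negative in both, so 38.9% kept the same direction, below the 45.2% of all genes. Globins and other erythroid genes leaned the other way, with 10 of 14 negative and a median of -0.73. The adult alpha globin gene Hba-a2 stood between -0.84 and -0.50 in Eng+Flk1+ and between -0.67 and 2.85 in Eng+Flk1- cells, against -1.23 to 0.36 in Eng-Flk1+ and 6.90 to 7.81 in Eng-Flk1- cells. The globin signal was thus concentrated in Eng-Flk1- arrays, and the difference of -3.44 ± 1.04 (adjusted p 0.454) split into -0.39 in the Flk1 positive and -6.48 in the Flk1 negative stratum.

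Among the TGF-beta and BMP receptors and Smads to which Endoglin belongs, 12 of 17 were positive with a median of 0.40 and none was called. Acvrl1, the type I receptor that partners Endoglin in endothelium, stood at 1.89, 1.20 and 4.19 in Eng+Flk1+ and 0.84, -1.92 and 0.70 in Eng+Flk1- cells, against 0.83, 2.14 and 1.05 in Eng-Flk1+ and -2.49, -4.25 and -4.23 in Eng-Flk1- cells. Only the Flk1 negative stratum was separate, and the difference over both was 2.31 ± 0.74 (limma adjusted p 0.454). The BMP receptor Bmpr1a differed by 1.67 ± 0.76 (adjusted p 0.662), with -0.38 in the Flk1 positive and 3.73 in the Flk1 negative stratum, and the activin receptor Acvr2b by -1.12 ± 0.57 (adjusted p 0.719). Of the ligands and BMP target genes 8 of 17 were positive, and the median was -0.09, with -0.57 in the Flk1 positive and 0.04 in the Flk1 negative stratum. Tgfb2, a ligand above background on 1 of 6 Endoglin positive and 4 of 6 Endoglin negative arrays, differed by -2.72 ± 0.98 (adjusted p 0.525).

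Visceral endoderm genes were negative for 14 of 17 members, with a median of -1.27 and no call. Cubn, an endocytic receptor of that tissue, differed by -3.57 ± 0.86 (limma adjusted p 0.345), -2.04 in the Flk1 positive and -5.11 in the Flk1 negative stratum. Its partner Lrp2 differed by -1.97 ± 0.65 (adjusted p 0.462) with no overlap of 6 against 6 arrays. The apolipoproteins Apoc2 and Apoa4 differed by -2.31 ± 0.73 and -2.38 ± 0.89, but only by -0.42 and 0.09 in the Flk1 positive stratum. The summed signal of the list, in multiples of the array's 75th percentile, was 12.3 to 26.5 in Endoglin positive and 16.4 to 346 in Endoglin negative arrays, with the high values all in Eng-Flk1- cells. Without those 3 arrays the median of the list was 0.01. Cer1 belongs with anterior and definitive endoderm, where 6 of 11 members were negative and 5 positive. Foxa1, an endoderm factor, differed there by -2.32 ± 0.81 (adjusted p 0.501) and Shh, a signal of the axial midline, by -1.91 ± 1.15 (adjusted p 0.776), and both lay mostly in the Flk1 negative stratum (-3.71 and -3.82, against -0.93 and -0.01). Shh was well above background on 3 of 6 Endoglin positive and 4 of 6 Endoglin negative arrays. Its Eng-Flk1- values were -4.41, -3.96 and 1.24, so its difference in the Flk1 negative stratum rests in large part on the last array. The part of endoderm cells in the Cer1 result was not tested.

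Trophoblast and extraembryonic ectoderm genes were positive for 12 of 16, with a median of 1.05, of which 0.09 in the Flk1 positive and 1.51 in the Flk1 negative stratum. Elf5, a factor of trophoblast stem cells, stood at -2.66, -3.40 and -3.61 in Eng+Flk1+ and 0.34, 0.81 and 1.64 in Eng+Flk1- cells, against -3.51, -3.95 and -3.37 in Eng-Flk1+ and -2.68, -2.73 and -1.93 in Eng-Flk1- cells. It was high in Eng+Flk1- cells alone among the 4 fractions. Over both strata it differed by 1.88 ± 0.55 (limma adjusted p 0.447), Esrrb by 2.87 ± 1.01 (adjusted p 0.507) and Tfap2c by 1.85 ± 0.65 (adjusted p 0.507). The list's summed signal was 36.9 to 109 in Endoglin positive and 32.2 to 77.4 in Endoglin negative arrays. The part of trophoblast cells in the differences of the Flk1 negative stratum was not tested.

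Cytosolic ribosomal proteins leaned downward in both strata. Of 34, 29 were negative and 27 were negative in both strata, where 21.1% of all genes were negative in both. The median was -0.30 (-0.32 in the Flk1 positive and -0.26 in the Flk1 negative stratum), none was called, and with quantile normalization the median turned to 0.03. Rpl11 differed by -1.08 ± 0.44 (limma adjusted p 0.599). Glycolytic genes were negative for 13 of 17 with a median of -0.36, of which -0.63 in the Flk1 positive and 0.10 in the Flk1 negative stratum. Among them were Tpi1 (-1.0 ± 0.29, limma adjusted p 0.44) and the lactate transporter Slc16a1 (-1.34 ± 0.51, adjusted p 0.565). Both medians are to be set beside the scaling, since scaling to the array median moved the median of all genes to -0.26.

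Annexins were positive for 8 of 11 with a median of 0.57, of which 0.15 in the Flk1 positive and 1.88 in the Flk1 negative stratum. The calcium-binding S100a6 and S100a10 differed by 3.66 ± 0.96 (limma adjusted p 0.393) and 3.11 ± 0.89 (adjusted p 0.44), while 8 of 12 S100 genes were negative. Most of both differences lay in the Flk1 negative stratum, where S100a6 differed by 5.93 and S100a10 by 5.61, against 1.39 and 0.60 in the Flk1 positive one. Basement membrane genes of parietal endoderm were positive for 10 of 12, with Nid1 at 3.15 ± 0.95 (adjusted p 0.454, above background on 2 of 6 Endoglin negative arrays) and Lamc1 at 1.79 ± 0.80 (adjusted p 0.656, with -0.34 in the Flk1 positive and 3.92 in the Flk1 negative stratum), but their median was -0.47 in the Flk1 positive and 1.98 in the Flk1 negative stratum. Among epithelial surface genes Cd24a fell while Cldn3, a tight junction protein, differed by 0.99 ± 0.31 (adjusted p 0.454), and 10 of 18 were positive.

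Lists of embryonic cell states had members on both sides and no call. Cardiac mesoderm genes were negative for 9 of 16 (median -0.34) and primitive streak genes for 8 of 14 (median -0.11). Neuroectoderm genes were negative for 7 of 10 (median -0.19), pluripotency genes for 7 of 12 (-0.45) and mesenchymal genes for 8 of 15 (-0.10). The cardiac factor Tbx20 differed by 2.51 ± 0.67 (limma adjusted p 0.402) and the streak factor Eomes by 1.45 ± 0.54 (adjusted p 0.537). The anterior neural factors Zic2 and Otx2 differed by -1.62 ± 0.44 (adjusted p 0.402) and -5.51 ± 1.50 (adjusted p 0.411), and Otx2 was above background on 1 of 6 Endoglin positive and 5 of 6 Endoglin negative arrays. Of the pluripotency genes, Tdgf1 differed by 1.19 ± 0.38 (adjusted p 0.454) and Pou5f1 by -1.35 ± 0.56 (adjusted p 0.621), the last with 0.0070 in the Flk1 positive and -2.71 in the Flk1 negative stratum. The mesenchymal filament gene Vim differed by 1.75 ± 0.56 and Ahnak by 1.57 ± 0.49 (adjusted p 0.454 for both). Among leukocyte genes Laptm5 was higher, while the surface glycoprotein Cd52 differed by -1.0 ± 0.39 (adjusted p 0.579).

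**Figure D4:**
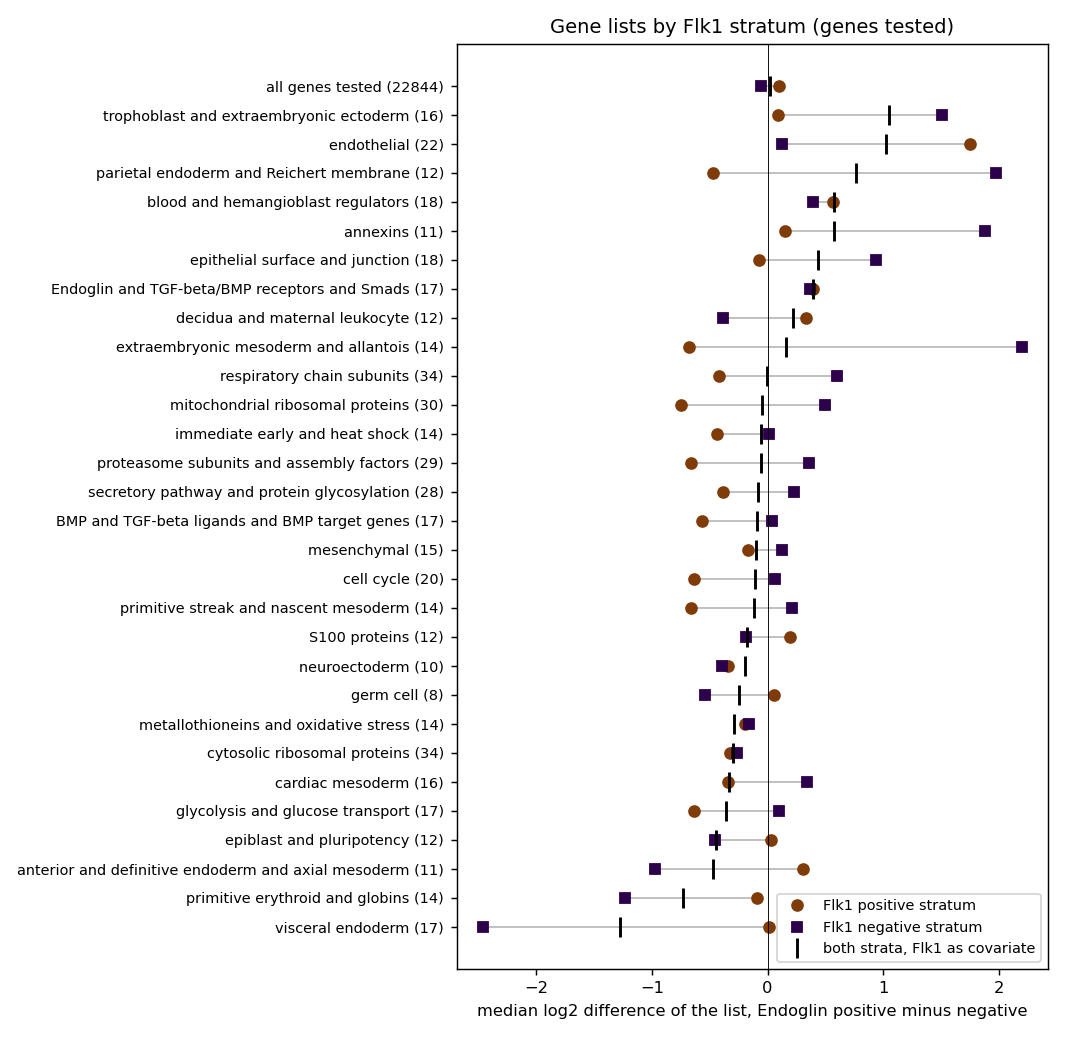
Median log2 difference (x axis) of the members of 29 gene lists and of all genes tested (y axis), in the Flk1 positive stratum, the Flk1 negative stratum and over both. Endothelial genes lie furthest to the right in the Flk1 positive stratum (1.75) and visceral endoderm genes furthest to the left in the Flk1 negative one (-2.45), while cytosolic ribosomal proteins lie at about -0.3 in both.

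Some genes differed with Endoglin in 1 stratum and not, or oppositely, in the other, and for these the pooled value describes neither. Bmp4, the ligand that patterns extraembryonic mesoderm, stood at 2.66, 2.11 and 1.50 in Eng+Flk1+ and 3.01, 3.50 and 3.68 in Eng+Flk1- cells, against 2.68, 1.77 and 1.62 in Eng-Flk1+ and -3.72, -1.44 and -3.24 in Eng-Flk1- cells. It was low in Eng-Flk1- cells alone. The difference was 0.07 in the Flk1 positive and 6.20 in the Flk1 negative stratum, and the test of that contrast gave -6.13 with limma's adjusted p 0.0239. Anxa2, a membrane-binding annexin, had the same shape, with -0.21 in the Flk1 positive and 6.50 in the Flk1 negative stratum (contrast -6.71, adjusted p 0.042).

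Fbxo17, an F-box gene singled out after its values were seen, was called in both strata with opposite signs. It stood at -6.50, -5.69 and -5.62 in Eng+Flk1+ and -2.22, -2.22 and -1.79 in Eng+Flk1- cells, against -1.67, -0.02 and -1.45 in Eng-Flk1+ and -5.80, -5.77 and -4.01 in Eng-Flk1- cells. Cells carrying exactly 1 of the proteins were high, and cells carrying both or neither were low. It fell by 4.89 in the Flk1 positive stratum (limma adjusted p 0.0483) and rose by 3.12 in the Flk1 negative one (adjusted p 0.0363), and the contrast was -8.01 (adjusted p 0.00628). It was well above background on 1 of 3 arrays in each of the low fractions, so the size of these differences rests in part on signals below background. Its pooled difference of -0.89 was not called.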

How the data were processed

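RNA of 12 sorted samples was lysed, amplified as cDNA by a global PCR protocol (SuperAmp) and labelled with Cy3 from 250 ng, per the labels' protocols, and each sample was hybridised to 1 one-colour Agilent array. The deposited scanner files come from Feature Extraction 10.5.1.1, per the file headers, and hold a background-subtracted processed intensity for each spot with flags for outliers, saturation and signal well above background. The design text names GeneSpring GX for the authors' analysis. The authors' deposited table of processed values was found to be each signal as a ratio to its array's median, and it served as an alternative. Global PCR amplification can distort levels between genes, and the number of arrays limits the precision.

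Processed intensities of the deposited files were turned to log2, and the 75th percentile over the 43379 non-control spots was subtracted on each array. Outlier spots were then left out. The remaining spots of a probe were averaged, giving 41174 probes. For a gene, taken by the name in the file, the probe of highest mean over the arrays was used. Names were updated through RefSeq accessions, symbols or synonyms where they matched. Genes with signal well above background throughout at least 1 fraction were tested in limma 3.58.1 (R 4.3.3) with Endoglin and Flk1 status as additive terms and Benjamini-Hochberg adjustment over 22844 genes; an adjusted p-value under 0.05 is a call. Strata and their difference came from a limma fit with the 4 fractions as groups. The procedure was tested on simulated data.

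Named are the markers Eng, Kdr, Cd24a, Cer1 and Anxa5, then 12 genes in each direction with the same sign and no overlap in both strata and signal above background on all arrays (called ones first, then by p), then the highest lower bounds each way, then up to 4 members of a list with the lowest p, besides every called gene. Genes outside this rule are said to be so. The values of 1 gene that the rule takes are not reported in the text. The markers and the 29 gene lists were chosen with earlier results of these data known. Alternatives were another background correction, scaling, filter, probe summary or variance model, slide and replicate blocks, and leaving out arrays. Sample numbers did not pair samples: deviations of same-numbered samples correlated between -0.0901 and 0.129. All 12 arrays were mapped by their titles.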

Additional observations from a re-analysis of the deposited data

Results flagged for a closer look

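Among the values named in the text, single arrays stood far from the other 5 of their arm for 10 genes. Within a single population chance gives such a gap in about 5% of groups of this size, whereas each arm here mixes a Flk1 positive and a Flk1 negative fraction. Both arms of every named gene were examined, so several such gaps would be found by chance alone. Whether the 10 exceed that number was not tested, and neither was the reason for any of these gaps. Eng-Flk1- replicate 3, the dimmest array, held 5 of them. It had Cd24a at 5.0 (next highest 4.29), Gm6212 at 5.62 (next 4.54), Gja1 at 3.72 (next 2.33), Dach1 at 2.72 (next -0.13), and Ptn at 0.45, below the next lowest value of 2.23. Eng-Flk1- replicate 1 had Prkcq at -4.89 (next lowest -3.84) and Lrp2 at 3.65 (next highest 0.69). Among Eng-Flk1+ arrays, replicate 3 had Cd52 at -0.22, where the next highest Endoglin negative value was -1.83. In the Endoglin positive arm, Eng+Flk1+ replicate 1 had Tgfb2 at -3.62 (next highest -7.70) and replicate 2 had Rpl11 at 0.21 (next lowest 2.17).

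The difference with Endoglin was not the same in both strata for 3 named genes, by the test of the difference itself (limma with 4 fractions as groups). The contrast of Flk1 positive minus Flk1 negative stratum was -6.71 for Anxa2, -6.13 for Bmp4 and -8.01 for Fbxo17, with adjusted p-values of 0.042, 0.0239 and 0.00628. For Anxa2 and Bmp4 the contrast follows low values in the Eng-Flk1- arrays, and for Fbxo17 each stratum differed, in opposite directions.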

How the results depend on the processing

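The arms share only slide 2, and the fraction with the dimmest arrays, Eng-Flk1-, carries much of the Flk1 negative stratum. Depth in the sense of signal over background limits Cer1, Wdr45 and Lrrc72 to bounds, and AK036185 in the Flk1 positive stratum. All 5 calls had the same direction as the additive fit in every alternative run. The additive fit called 5 genes, all shifted the same way, as such a fit favours. Normexp background correction called 3, quantile normalization 2, median scaling 2, the table of the authors 2 and genes above background on all 12 arrays 3. Slide as a fixed block called 0 and the fit without the 3 Eng-Flk1- arrays 13. The 4 fractions as groups called 66 (54 the same way), and slide as a random block 353 (347 the same way, 256 higher and 97 lower), with a correlation of arrays on 1 slide of -0.151. Leaving out 1 array gave 2 to 14 calls, 14 without Eng-Flk1- replicate 2. AK036185 and Cer1 stayed called without any 1 array (highest adjusted p 0.0298 and 0.0457), while Cd24a lost its call in 8 of these 12 fits, Hlx in 6 and Prkcq in 10. Their adjusted p-values over all alternatives ran from 0.000418 to 0.236 for AK036185, 0.000418 to 0.623 for Cer1, 0.00125 to 0.779 for Cd24a, 0.00125 to 0.759 for Hlx and 0.00308 to 0.955 for Prkcq. Called list members, 2 in the additive fit, were 1 with normexp, quantile, median scaling, the authors' table or the stricter filter, 10 with 4 fractions, 0 with the fixed and 25 with the random slide block, and 1 to 2 without 1 array.

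Genes separate in opposite directions, 306, became 517 (normexp), 506 (quantile) and 653 (median scaling, authors' table). Without 1 array they were 415 to 872, against 365 to 540 in the same direction. With fewer arrays to overlap, leaving 1 out can only keep or add such genes, so a rise there was fixed in advance. Calls for the difference between strata, 63, became 39, 40, 33 (both median-scaled tables), 21 (stricter filter), 41 (array weights), 26 (replicate block) and 25 to 312 without 1 array. Calls for Flk1, 147, became 72 (stricter filter), 236 (mean of probes), 233 (weights), 5 and 512 (fixed and random slide block), 97 (replicate block) and 82 to 172 without 1 array. Eng differed by 1.12 with normexp (exact permutation p = 0.05) and by 1.01 on both median-scaled tables (p = 0.105). The replicate block, whose numbers only name samples, called 4 genes for Endoglin, among them AK036185, Cer1 and Cd24a. Signs turned with the fixed slide block for Anxa2 (-0.70), Apoc2 (0.52), Apoa4 (0.83), Pou5f1 (0.18), Lamc1 (-0.033), Acvrl1 (-0.045) and Bmpr1a (-0.48), with the random block for Fbxo17 (0.060), and without the 3 Eng-Flk1- arrays for Anxa2 (-0.21), Apoa4 (0.088), Pou5f1 (0.0070), Lamc1 (-0.34) and Bmpr1a (-0.38). The cause was not tested.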
